A study of Mus musculus with 24 samples.

Results

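The glucocorticoid stress response genes described here are the glucocorticoid receptor gene Nr3c1 and 9 genes known to be induced by the receptor: Tsc22d3, Fkbp5, Per1, Sgk1, Dusp1, Zbtb16, Ddit4, Txnip and Klf9. They were chosen by name. Every probe whose transcript accession maps to 1 of these 10 genes was taken, which gave 12 of the 55681 probes and 10 of the 21154 named genes on the array. Nr3c1 and Txnip had 2 probes each, and the probe with the brighter thymocyte signal stands for the gene unless the second is named.

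Thymocyte RNA of C57BL/6J mice, male and female and a few weeks old, was measured on 24 two-colour arrays, with 3 mice in each of 8 groups of 1 sex and 1 regimen. Control mice were not irradiated, low dose mice received 0.075 Gy of X-rays, high dose mice 1.75 Gy of γ-rays, and mice under the adaptive regimen of radiation (RAR) received 0.075 Gy of X-rays and then, 6 h later, 1.75 Gy of γ-rays. The methods describe the irradiation of mice and the straining of the dispersed thymus, so that the samples hold whatever cells pass a strainer, while the labels name the thymocytes as irradiated. The time from the last irradiation to collection is not given in the sources used here. The values are log2 ratios of thymocyte RNA (Cy5) over a common mouse reference RNA (Cy3), so a log2 difference of 1 between groups is a 2-fold difference, and the ratio of 1 gene cannot be set against that of another gene as a level.

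Glucocorticoids are steroid hormones of the adrenal gland that are released under stress. They bind a receptor, the product of Nr3c1, which waits in the cytoplasm in a complex with HSP90 and its co-chaperones, enters the nucleus and binds DNA at glucocorticoid response elements. Among the genes it switches on are feedback inhibitors, such as Fkbp5, and repressors of inflammatory signalling. Thymocytes, and the double-positive cells among them above all, are known for dying by apoptosis when glucocorticoids rise.

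The upstream sequences of 4 members are shown because they differ in whether the window holds a palindromic response element and because these genes moved in different ways in the arrays. Each is the 250 bases before a RefSeq start site in GRCm38.p6, written 5′ to 3′ along the strand of the gene. Capitals mark, in Sgk1 and Txnip, a match to the palindromic element, which is GNACA, any 3 bases and then TGTNC, with N as any base, and a match to the cyclic AMP response element TGACGTCA in Dusp1. Fkbp5 has neither and is printed without capitals.

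Sgk1, chr10:21993640-21993889, plus strand: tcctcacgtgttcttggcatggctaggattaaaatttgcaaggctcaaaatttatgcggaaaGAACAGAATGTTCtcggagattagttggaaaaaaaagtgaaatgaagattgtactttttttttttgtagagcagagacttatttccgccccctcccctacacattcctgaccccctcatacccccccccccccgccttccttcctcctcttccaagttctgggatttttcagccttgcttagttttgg

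Txnip, chr3:96557707-96557956, plus strand: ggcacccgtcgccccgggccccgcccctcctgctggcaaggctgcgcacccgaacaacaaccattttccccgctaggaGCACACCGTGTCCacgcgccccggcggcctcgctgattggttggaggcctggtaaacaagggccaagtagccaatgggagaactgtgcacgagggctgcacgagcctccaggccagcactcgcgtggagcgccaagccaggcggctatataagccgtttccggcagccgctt

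Dusp1, chr17:26508473-26508722, minus strand: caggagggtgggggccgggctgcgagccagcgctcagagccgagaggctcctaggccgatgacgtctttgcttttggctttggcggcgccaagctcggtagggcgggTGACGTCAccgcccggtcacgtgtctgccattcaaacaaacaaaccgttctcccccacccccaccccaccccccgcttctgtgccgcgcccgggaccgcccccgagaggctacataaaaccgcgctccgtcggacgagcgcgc

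Fkbp5, chr17:28486150-28486399, minus strand: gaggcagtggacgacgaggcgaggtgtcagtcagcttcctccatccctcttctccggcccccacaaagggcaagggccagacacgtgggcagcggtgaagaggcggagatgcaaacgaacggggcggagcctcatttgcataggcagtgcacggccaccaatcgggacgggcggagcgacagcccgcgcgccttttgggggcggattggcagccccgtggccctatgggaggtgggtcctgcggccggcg

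The palindrome, searched on both strands, lay in 127 of 32817 windows of all genes (0.387%), each the 250 bases before a start. Among the 16 windows given for 8 of the members, it lay in 1 of the 6 Sgk1 windows and in the Txnip window. TGACGTCA lay in 1.55% of all windows. The shorter single-arm site AGAACA lay in 16.1% of all windows, and among the members in 1 of the 3 Tsc22d3 windows and in 3 of the 6 Sgk1 windows, where 2 of the 3 matches in the printed window overlap the palindrome. A match to these letters is a description of the sequence and was not tested as a binding site.

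Arrays were compared with limma over all 55681 probes, and a probe counts as higher or lower at a Benjamini-Hochberg adjusted p under 0.05 and a difference of at least 1.5-fold. Averaged over the sexes, 5 of the 10 members rose at the low dose, where 5.19% of the 21154 genes were called higher, and 0 fell (6.32% of genes were called lower). At the high dose 6 rose (5.95% of genes) and 0 fell (7.32%). In RAR 6 rose (13.2% of genes) and 1 fell (17.5%). The median log2 change of the 10 genes was 0.62, 0.68 and 0.81 in these comparisons, against −0.04, −0.05 and −0.08 over all genes. The comparisons share the 6 control arrays. Because the RNA comes from a mixed suspension, fewer cells of a type and less RNA per cell cannot be told apart in any of these values.

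**Figure D1:**
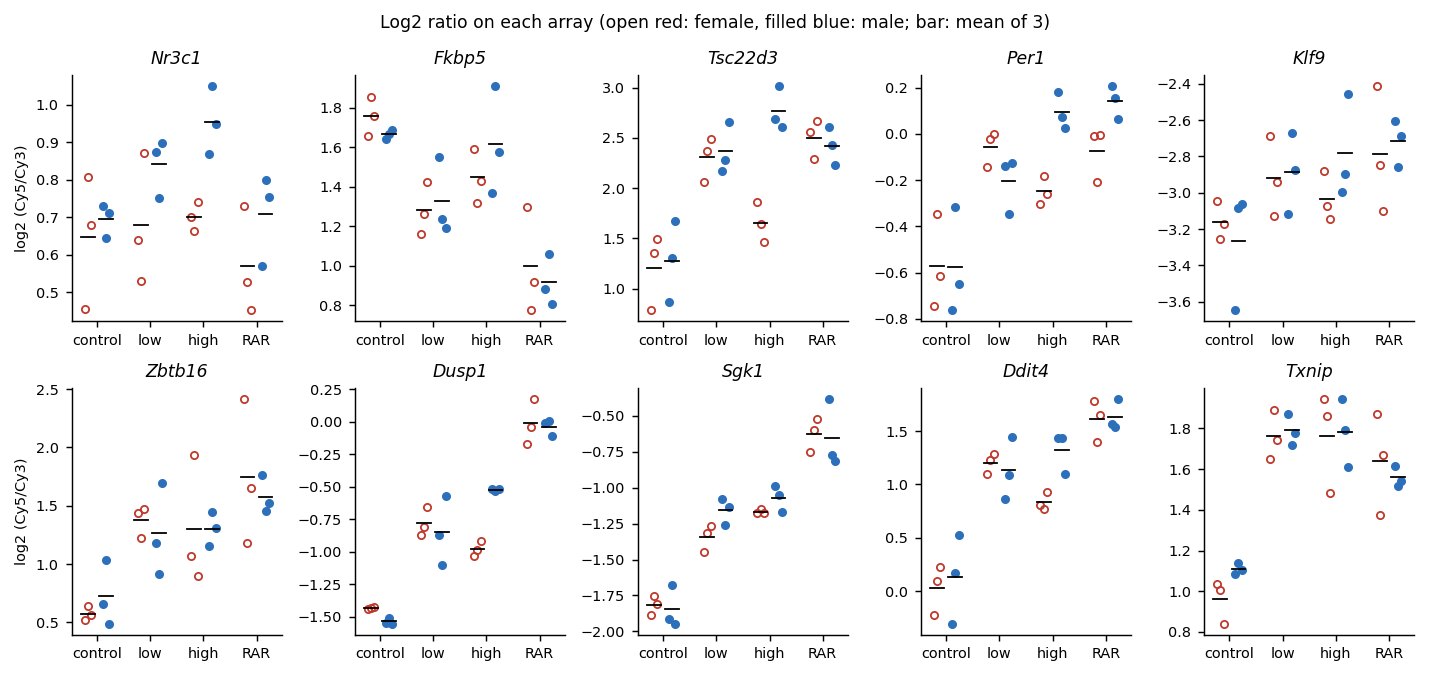
Log2 ratio (Cy5 over Cy3, y axis, a separate scale in each panel) of each of the 10 genes on every array, by regimen (x axis) and sex, with bars at the mean of 3 arrays. Dusp1 and Sgk1 step up from control to the single doses and again to RAR, Fkbp5 lies lowest in RAR at 0.78 to 1.30, and Nr3c1 stays between 0.45 and 1.05 throughout.

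The receptor gene itself moved little on average over the sexes. The log2 ratio of Nr3c1 was 0.45 to 0.81 on the 6 control arrays (median 0.70), 0.53 to 0.90 at the low dose (median 0.81), 0.66 to 1.05 at the high dose (median 0.80) and 0.45 to 0.80 in RAR (median 0.65). These ranges, with the sexes pooled, overlap in every pair of regimens. In males alone, the low dose arrays (0.75 to 0.90) and the high dose arrays (0.87 to 1.05) lay above the controls (0.64 to 0.73). In females the arrays of both doses overlapped with the controls. No change of Nr3c1 from control was called within either sex. Its change from control was 0.09 at the low dose (95% interval −0.08 to 0.25, adjusted p = 0.529), 0.16 at the high dose (−0.01 to 0.32, adjusted p = 0.178) and −0.03 in RAR (−0.20 to 0.13, adjusted p = 0.800). The second, dimmer Nr3c1 probe was lower in RAR than in control by −0.34 (adjusted p = 0.00770) and lower than at the high dose by −0.43 (adjusted p = 0.00343), both below the 1.5-fold limit, so the probes of this gene disagree in part. With the slide as a block the first of these was −0.21 (adjusted p = 0.437). The sexes were uneven on this probe. Its mean was 0.11 in control, −0.11 at the high dose and −0.42 in RAR in females. In males it was −0.30, 0.08 and −0.46. Limma's F-test of the interaction of sex and regimen gave this probe an unadjusted p of 0.0446 and an adjusted p of 0.770, which did not pass.

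Fkbp5 encodes FKBP51, a co-chaperone that holds the receptor in a state of low affinity and is itself a well-known target of the receptor. In controls its log2 ratio was 1.66, 1.86 and 1.76 in females and 1.64, 1.67 and 1.69 in males. At the low dose it was 1.16, 1.26 and 1.42 in females and 1.55, 1.24 and 1.19 in males, and at the high dose 1.59, 1.32 and 1.43 in females and 1.37, 1.91 and 1.58 in males. In RAR it was 1.30, 0.78 and 0.92 in females and 0.88, 1.06 and 0.81 in males, so that every RAR array lay below every control array and below every high dose array. Fkbp5 fell in RAR by 0.75 on the log2 scale (standard error 0.106, adjusted p = 1.09e-05, 1.69-fold), while 6 other members rose. Its change was −0.41 at the low dose, with no overlap with control but below the 1.5-fold limit (adjusted p = 0.00889), and −0.18 at the high dose (adjusted p = 0.270). RAR lay below the high dose by −0.58 (adjusted p = 0.000722), a 1.49-fold difference just under the limit, and below the low dose by −0.35 (adjusted p = 0.0245).

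Of the transcriptional regulators among the members, Tsc22d3 changed most. It encodes GILZ, a leucine zipper protein that restrains NF-κB and AP-1 and is induced by glucocorticoids in thymocytes. Its log2 ratio in controls was 0.78, 1.35 and 1.49 in females and 0.86, 1.30 and 1.67 in males. At the low dose it was 2.07, 2.37 and 2.49 in females and 2.17, 2.28 and 2.66 in males, and all 6 arrays lay above all controls. At the high dose it was 1.87, 1.64 and 1.46 in females and 2.69, 3.02 and 2.61 in males, so that the female arrays reached into the range of the controls and the male arrays did not. In RAR it was 2.56, 2.29 and 2.67 in females and 2.61, 2.43 and 2.23 in males, again above all controls. Tsc22d3 rose by 1.09 at the low dose (standard error 0.154, adjusted p = 4.17e-05, 2.14-fold), by 0.97 at the high dose (adjusted p = 0.000116) and by 1.22 in RAR (adjusted p = 3.07e-06, 2.33-fold).

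Per1, a repressor of the circadian clock that is an early target of the receptor, lay at −0.76 to −0.32 in controls, −0.35 to −0.00 at the low dose, −0.31 to 0.18 at the high dose and −0.21 to 0.21 in RAR. Only RAR passed both limits, with a rise of 0.61 (adjusted p = 1.10e-05, 1.52-fold). The differences of 0.44 at the low dose (adjusted p = 0.000825) and 0.50 at the high dose (adjusted p = 0.000257) were under 1.5-fold. The rise in RAR was 0.56, also under 1.5-fold, without female control replicate 1 or without male control replicate 1, and 0.34 in the Cy5 channel alone.

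Zbtb16 encodes PLZF, the zinc finger factor of innate-like T cells, and Klf9 a Krüppel-like factor that is induced directly by the receptor in many tissues. Zbtb16 lay at 0.49 to 1.03 in controls, 0.92 to 1.69 at the low dose, 0.90 to 1.93 at the high dose and 1.18 to 2.42 in RAR, where the ranges of RAR and control did not overlap. It rose by 0.67 at the low dose (adjusted p = 0.0201), 0.65 at the high dose (adjusted p = 0.0222) and 1.01 in RAR (adjusted p = 0.000380). Its first 2 calls were the weakest of the members: without male control replicate 3 the adjusted p was 0.0528 at the low dose and 0.0577 at the high dose, without male low dose replicate 3 it was 0.0566 at the low dose, and without female high dose replicate 2 it was 0.0682 at the high dose. Normexp background correction with loess gave 0.51 at the low dose and 0.49 at the high dose, both under 1.5-fold. With quantile normalization the high dose rise was 0.58, also under 1.5-fold. Klf9, dim in thymocytes with Cy5 well above background on 23 of 24 arrays, lay at −3.65 to −3.05 in controls and −3.10 to −2.41 in RAR. It was not called in any comparison, averaged or within a sex. Averaged over the sexes it differed from control by 0.46 in RAR (adjusted p = 0.0121, 1.38-fold).

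The signalling genes Dusp1 and Sgk1 were the 2 members whose RAR arrays overlapped with neither single dose. Dusp1 encodes MKP-1, the phosphatase that switches off p38 and JNK. Its log2 ratio was −1.44, −1.43 and −1.43 in female controls and −1.55, −1.51 and −1.55 in male controls. At the low dose it was −0.87, −0.81 and −0.65 in females and −0.87, −1.10 and −0.57 in males, and at the high dose −1.03, −0.98 and −0.91 in females and −0.52, −0.53 and −0.52 in males. In RAR it was −0.17, −0.04 and 0.18 in females and −0.01, 0.01 and −0.11 in males, above every array of every other regimen. Dusp1 rose by 0.67 at the low dose (adjusted p = 6.93e-06), 0.74 at the high dose (adjusted p = 1.99e-06) and 1.46 in RAR (standard error 0.0800, adjusted p = 1.12e-10, 2.75-fold).

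Sgk1 encodes a kinase related to AKT that acts on ion transport and on FOXO factors, and the palindrome printed above lies upstream of 1 of its starts. Its log2 ratio was −1.88, −1.75 and −1.81 in female controls and −1.91, −1.67 and −1.95 in male controls. At the low dose it was −1.45, −1.32 and −1.27 in females and −1.08, −1.26 and −1.13 in males, and at the high dose −1.18, −1.15 and −1.18 in females and −0.99, −1.05 and −1.17 in males. In RAR it was −0.75, −0.60 and −0.52 in females and −0.38, −0.77 and −0.81 in males. All irradiated arrays lay above all controls, and all RAR arrays above all arrays of both single doses. The rise was 0.71 at the high dose (adjusted p = 3.12e-06) and 1.19 in RAR (standard error 0.0804, adjusted p = 1.48e-09, 2.28-fold). The low dose difference of 0.58 (adjusted p = 3.59e-05) was 1.49-fold and thus just under the limit, and 0.62 with the slide as a block, which is past it.

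Ddit4 and Txnip act on metabolism. Ddit4 encodes REDD1, an inhibitor of mTORC1, and its log2 ratio was −0.30 to 0.52 in controls (median 0.13), 0.87 to 1.45 at the low dose (median 1.17), 0.77 to 1.44 at the high dose (median 1.01) and 1.40 to 1.80 in RAR (median 1.61). No irradiated array reached down to the controls. Ddit4 rose by 1.09 at the low dose (adjusted p = 1.01e-05), 1.00 at the high dose (adjusted p = 2.07e-05) and 1.54 in RAR (adjusted p = 3.09e-08, 2.91-fold), the largest change of any member. Txnip, which binds thioredoxin and limits glucose uptake, lay at 0.84 to 1.14 in controls (median 1.06), 1.65 to 1.89 at the low dose (median 1.76), 1.48 to 1.94 at the high dose (median 1.83) and 1.38 to 1.87 in RAR (median 1.58). It rose by 0.74 at the low dose (adjusted p = 1.35e-05) and 0.74 at the high dose (adjusted p = 1.15e-05), and its RAR difference of 0.56 (adjusted p = 6.99e-05, 1.48-fold) was just under the limit. The second Txnip probe gave 0.48, 0.50 and 0.37 in the same order, none of them 1.5-fold.

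In the exact two-sided permutation test, with regimens exchanged within each sex, p was 0.005 in RAR against control for each of the 7 members called there, which is the smallest value that 6 arrays against 6 can give in this scheme. The RAR and control arrays of these 7 do not overlap, which by itself gives that value, as for any gene without overlap. The test thus adds nothing to the calls. Between RAR and control, 8 of the 10 members did not overlap (35.2% of all genes), and the others were Nr3c1 and Klf9. At the low dose 6 did not overlap with control (18.6% of genes) and at the high dose 5 (20.9%). By the adjusted p alone, without a limit on the fold, 8 members passed at the low dose (28.8% of genes), 7 at the high dose (31.4%) and 9 in RAR (49.0%).

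**Figure D2:**
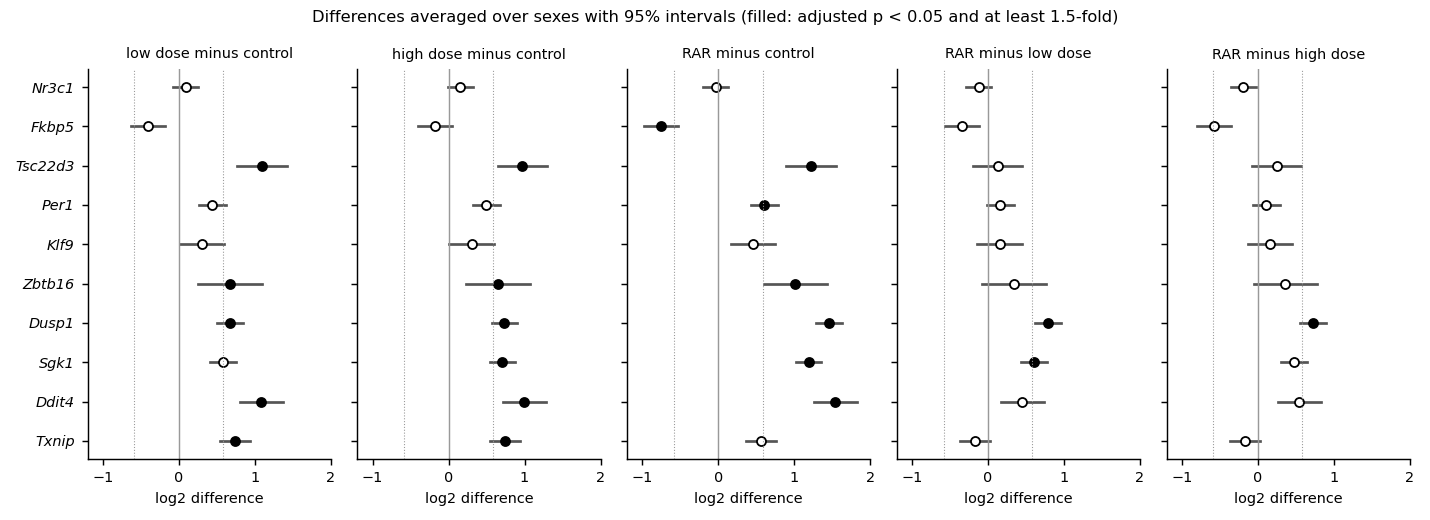
Log2 difference (x axis) of each gene (y axis) averaged over the sexes in 5 comparisons, with 95% intervals from limma, filled points past both limits and dotted lines at 1.5-fold. Fkbp5 is the one gene called lower, at −0.75 in RAR against control, and Dusp1 lies past the limits in all 5 panels.

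RAR adds the X-ray dose to the γ-ray dose, so RAR minus high dose shows the difference that goes with the earlier small dose and its session. The methods describe no sham exposure, so the dose and the handling in that session cannot be told apart. The same holds for irradiation and handling in the comparisons with control. Of the 10 members 1, Dusp1, was called higher in RAR than at the high dose (6.62% of genes), by 0.72 (standard error 0.0800, adjusted p = 5.70e-06), and 0 were called lower (4.64%). Sgk1 was higher by 0.48 (adjusted p = 0.000337) without overlap, and Ddit4 by 0.54 (adjusted p = 0.00658) with overlap, both under 1.5-fold. By the adjusted p alone 4 members passed (30.3% of genes), and 3 did not overlap (15.4%). Tsc22d3 differed by 0.25 (95% interval −0.07 to 0.58, adjusted p = 0.287) and Txnip by −0.17 (−0.37 to 0.03, adjusted p = 0.221). Against the low dose, Dusp1 (0.79, adjusted p = 1.61e-06) and Sgk1 (0.61, adjusted p = 2.74e-05) were called higher in RAR, 2 of 10 where 6.37% of genes were, and 0 were called lower (5.41%). By the adjusted p alone 4 passed (30.8%), and 2 did not overlap (16.5%). The Sgk1 call against the low dose sits at the fold limit: the difference was 0.58 without female RAR replicate 3, without female low dose replicate 1 or without male low dose replicate 2, and 0.54 without male RAR replicate 1, each under 1.5-fold.

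Averaged over the sexes, none of the 10 members was called between the single doses, 1.75 Gy against 0.075 Gy, where 0.00473% of genes were called by limma in either direction, and 1 member had an unadjusted p under 0.05. That member was Fkbp5, 0.23 higher at the high dose (95% interval 0.005 to 0.45, adjusted p = 0.719), and 6.76% of genes had such a p. The interval of the difference was −0.45 to 0.20 for Tsc22d3, −0.10 to 0.23 for Dusp1, −0.04 to 0.30 for Sgk1 and −0.37 to 0.19 for Ddit4. Within each sex 0 members were called (0.00% of genes), but in females the arrays of the 2 doses did not overlap for 5 of 10 members (12.4% of genes) and in males for 2 (14.3%). No slide held both female low dose and female high dose arrays, so dose and slide cannot be told apart in females here. Tsc22d3 was −0.65 at the high against the low dose in females (adjusted p = 0.994) and 0.40 in males (adjusted p = 0.721), values that offset each other in the average. This comparison was added with the values known.

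The study asked whether the sexes respond differently, so the changes were also taken within each sex. In females 4 members rose at the low dose (4.90% of genes), 3 at the high dose (4.29%) and 6 in RAR (10.5%), where 1 fell (15.0%), while 0 fell at the low dose (5.52%) or the high dose (5.15%). In males 5 rose at the low dose (3.66%), 6 at the high dose (5.89%) and 6 in RAR (12.9%), where 1 fell (17.3%), while 0 fell at the low dose (4.85%) or the high dose (7.36%). The member that fell was Fkbp5 in both sexes, by 0.76 on the log2 scale in females (adjusted p = 0.000717) and by 0.75 in males (adjusted p = 0.000670). Against the high dose, RAR was called higher in 3 members in females (5.11% of genes) and lower in 0 (4.09%), and higher in 0 in males (4.66%) and lower in 1 (3.51%). The 3 were Tsc22d3 (0.85), Dusp1 (0.97) and Ddit4 (0.78), and the 1 was Fkbp5 (−0.70, adjusted p = 0.00608). Against the low dose, RAR was called higher in 2 members in females (3.33%), Sgk1 and Dusp1, and in 1 in males (7.04%), Dusp1, and lower in 0 in either sex (2.69% and 6.51%). With 3 arrays against 3, the exact permutation test cannot go below 0.1. Between male and female RAR 0 members were called by limma (0.288% of genes) and 0 had an unadjusted p under 0.05. In the differences of sex differences, RAR against control, high dose and low dose, 0 members were called (0.00% of genes in each), and 0, 2 and 1 of the 10 had an unadjusted p under 0.05, against 7.94%, 4.44% and 8.58% of genes.

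Among the probes that stand for the 10 members, those of Tsc22d3 and Dusp1 had the most uneven changes at the high dose. Tsc22d3 differed from control by 0.45 in females (standard error 0.218, adjusted p = 0.222) and rose by 1.49 in males (adjusted p = 0.000113). The difference between these changes was 1.05 (standard error 0.308, unadjusted p = 0.00327, adjusted p = 0.640), so it did not pass. Dusp1 differed by 0.46 in females (adjusted p = 0.0105, under 1.5-fold) and rose by 1.01 in males (adjusted p = 7.33e-06), a difference of 0.56 (unadjusted p = 0.00276, adjusted p = 0.640). These comparisons of sex differences at the single doses were added with the values known. Limma's F-test of the interaction of sex and regimen gave an adjusted p of 0.700 for both and called 0 of the 10 members and 0.00% of genes, while 3 of 10 had an unadjusted p under 0.05, against 6.53% of genes. These were Tsc22d3 (0.00377), Dusp1 (0.00831) and Per1 (0.0442). No slide held arrays of both female groups.

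**Figure D3:**
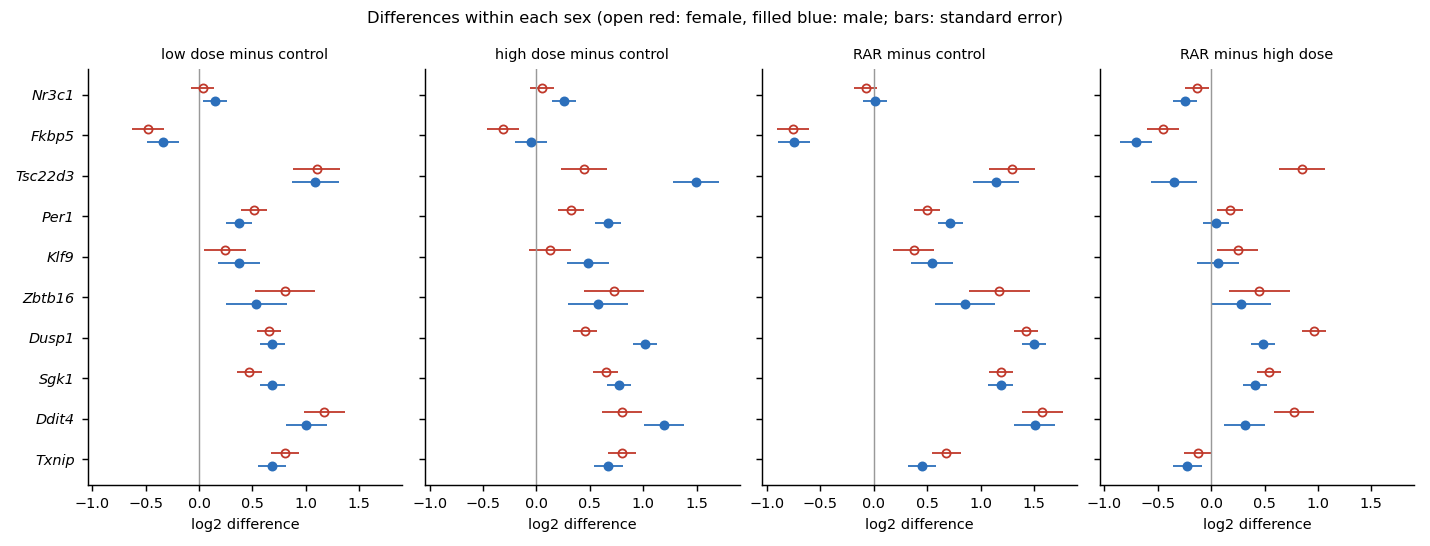
Log2 difference (x axis) of each gene (y axis) in females (open red) and males (filled blue) in 4 comparisons, with bars of 1 standard error. The sexes lie close together in RAR against control, and Tsc22d3 stands apart at the high dose, at 0.45 in females and 1.49 in males, a difference that did not pass the adjusted test.

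The arrays lay on 3 slides that the regimens crossed only in part. The third slide held all 3 female controls and 2 male controls and no RAR or high dose array. Only 1 control array, male replicate 1, shared a slide with RAR or high dose arrays. With the slide as a block the counts were 6 at the low dose, 6 at the high dose and 7 in RAR, with 1 of the last lower. The shares of all genes were not taken in this fit, so these counts show only how the calls of the members moved. Zbtb16 then lost its call at the high dose (0.94, adjusted p = 0.107), and Per1 gained one (0.67, adjusted p = 0.00469). On the second slide, which held 1 male control array and 1 male RAR array, RAR minus control was 1.87 for Ddit4, 1.74 for Tsc22d3, 1.54 for Dusp1, 1.53 for Sgk1 and −0.76 for Fkbp5. That control array was the lowest of the male controls for Ddit4, Tsc22d3 and Fkbp5, and the middle one for Dusp1 and Sgk1. Low dose minus control within slides was 0.93 to 1.41 for Tsc22d3 over 3 pairings of sex and slide, 0.81 to 1.39 for Ddit4 and 0.44 to 0.81 for Dusp1. RAR minus high dose within slides was 0.47 to 0.87 for Dusp1 over 3 pairings, and −0.86 to −0.41 for Fkbp5.

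Female RAR replicates 2 and 3 stood apart in the share of spots well above background in Cy5, at 71.8% and 34.7%, where all other arrays had 49.3% to 62.8%. Without both, female RAR rests on replicate 1 alone, which was the highest RAR array for Klf9 (−2.41), Zbtb16 (2.42) and Txnip (1.87). The change from control in RAR was then 0.65 for Klf9 and 0.68 for Txnip. Against the high dose the RAR difference was then 0.63 for Ddit4 and 0.70 for Zbtb16. With 1 array in that group, these values describe that array as much as the regimen.

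Genes of the same pathway were read from 3 further lists. Of 20 genes of the receptor machinery, the chaperones, steroid-converting enzymes and cofactors, 0 rose and 4 fell at the low dose (5.19% and 6.32% of all genes), 0 rose and 5 fell at the high dose (5.95% and 7.32%), and 2 rose and 4 fell in RAR, where 13.2% of all genes rose and 17.5% fell, so that the RAR counts lie near those of all genes. Fkbp4, which carries the receptor towards the nucleus, fell by 1.07 at the low dose, by 1.01 at the high dose and by 1.20 in RAR (adjusted p = 3.20e-06, 4.65e-06 and 1.49e-07). Ptges3, the p23 co-chaperone, fell by 0.86, 0.86 and 0.67, and the adaptor Stip1 fell by 0.74 at the low dose and by 0.78 in RAR. Hsp90aa1 fell by 0.76 at the high dose. The coactivator Crebbp rose by 0.89 in RAR. The list's median change was −0.05, −0.01 and −0.16, near that of all genes.

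Of 20 other genes known to be induced by glucocorticoids, 7, 8 and 8 rose at the low dose, at the high dose and in RAR, beside 5.19%, 5.95% and 13.2% of all genes, and 0 fell. The transcription factor Cebpd rose by 2.38, 2.56 and 2.78, and Cebpb by 1.80, 1.97 and 3.56. Anxa1, an inhibitor of inflammation in myeloid cells, was 2.15-fold higher at the low dose and was highest in RAR. Its log2 ratio was −5.71 to −5.11 in controls, −4.49 to −4.14 at the low dose, −4.54 to −3.93 at the high dose and −3.68 to −2.47 in RAR. The decoy receptor Il1r2 rose by 1.81 at the high dose and by 2.61 in RAR. With the slide as a block neither Il1r2 rise was called (1.11, adjusted p = 0.633, and 1.90, adjusted p = 0.210). Bcl2l11, a BH3-only death gene, Il7r, the interleukin-7 receptor, and Cxcr4, a chemokine receptor, were not called in any of these comparisons. Cxcr4 had −0.52 in RAR (adjusted p = 7.63e-05), which is under 1.5-fold. The median of the list was 0.36, 0.44 and 0.44.

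Of 12 inflammatory genes known to be repressed by glucocorticoids, 6, 7 and 8 rose, beside the same shares of all genes, and in RAR 1 fell. Il1b, the cytokine interleukin-1β, rose by 5.16, 5.43 and 5.03 and Ptgs2, the inducible cyclo-oxygenase, by 1.86 at the low dose and by 2.11 at the high dose. Over 38 alternative settings the Ptgs2 rise was 0.76 to 1.97 at the low dose and 0.85 to 2.71 at the high dose. Ptgs2 was called in all 38, but the size of its rise depends on the setting. Il6 was called higher at both single doses, but it was well above background on 0 of the 6 control arrays and no fold is given. In RAR the chemokines Cxcl10 and Ccl2 rose by 5.81 and 4.54. Ifng was the gene called lower in RAR (adjusted p = 0.0498), but it was well above background on only 4 of 6 RAR and 5 of 6 control arrays, and the call held in 10 of 38 alternative settings. The median of this list was 0.92, 1.24 and 1.61, above that of all genes, as was the median of the induced list.

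**Figure D4:**
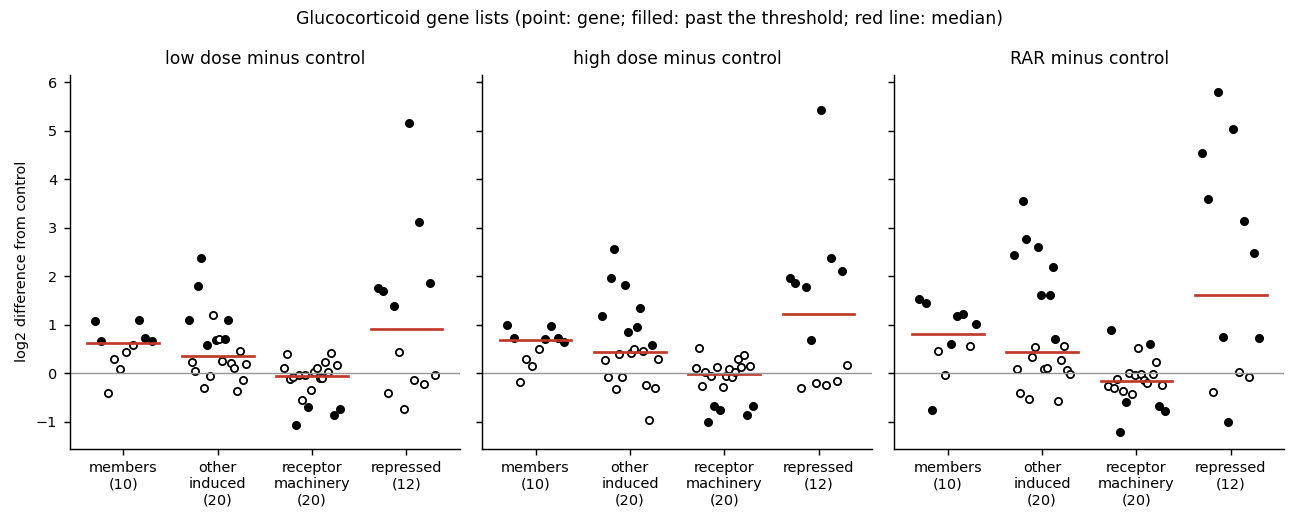
Log2 difference from control (y axis) of single genes in the 10 members and 3 further glucocorticoid lists (x axis), with filled points past both limits and red lines at the medians. The list of repressed inflammatory genes reaches highest, with Cxcl10 at 5.81 in RAR, and the receptor machinery has filled points below 0.

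Markers of cell types were read in the same comparisons with control. Of all genes, 5.19% were called higher at the low dose, 5.95% at the high dose and 13.2% in RAR. The shares called lower were 6.32%, 7.32% and 17.5%. Of 11 myeloid markers, 10 of them well above background on all 24 arrays, 6 were called higher and 1 lower at the low dose, 6 higher at the high dose and 11 higher in RAR, and their mean log2 ratio per array was 0.20 to 0.85 in controls, 1.09 to 1.37 at the low dose, 1.19 to 1.70 at the high dose and 2.11 to 2.86 in RAR. Of 8 markers of mature T cells, 1, 2 and 6 were called higher, with array means of 3.19 to 3.56 in controls and 3.92 to 4.31 in RAR. The 12 markers of double-positive thymocytes, all well above background on every array, had means of 5.197 to 5.67 in controls and 5.29 to 5.58 in RAR, with 0 called at either single dose and 3 higher and 2 lower in RAR. Of 9 epithelial markers 3, 3 and 4 were called lower, beside 6.32%, 7.32% and 17.5% of all genes, and 1 was called higher in RAR. Of 8 B cell markers 1, 2 and 4 were called lower and 0, 1 and 1 higher, with array means of 0.47 to 0.94 in controls and 0.14 to 0.38 in RAR. Of 8 adipocyte markers 1, 2 and 5 were called lower and 0, 0 and 2 higher, with means of 1.16 to 2.50 in controls and 1.01 to 1.86 in RAR. Of 8 stromal and endothelial markers 2, 2 and 2 were called lower and 0, 1 and 2 higher, and of 7 erythroid markers 0, 1 and 0 lower and 0, 0 and 1 higher. In RAR, the counts called lower for double-positive thymocytes and for stroma and endothelium lay near the share of all genes. Several lists hold dim markers. Well above background on all 24 arrays were 4 of 9 epithelial, 4 of 8 B cell and 3 of 8 adipocyte markers. The same held for 5 of 8 stromal and endothelial and 7 of 8 mature T cell markers. The part of any of these cell types in the changes of the glucocorticoid genes was not tested.

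The genes most like Tsc22d3 over the 24 arrays, among 10053 genes well above background on every array, were Resf1 (Pearson r = 0.894), Pik3ip1 (r = 0.894) and Prkar1a (r = 0.883). For Nr3c1 they were Zfp280d (r = 0.724), Egln2 (r = 0.703) and Gpx2 (r = 0.702). These values describe likeness only, since the arrays share regimens and slides and the genes were picked as the highest of many.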

How the data were processed

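For 24 arrays the authors deposited the scanner output, with the intensity of both channels per spot and flags, and a matrix of log2 ratios (Cy5 over Cy3) per probe and array. Per the file headers, background subtraction and dye normalization were done array by array in Feature Extraction 11.5.1.1. The deposited log2 ratios lay within 0.01 of those of the processed intensities for 100% of values once outlier spots (183 to 368 per array) were left out, and were used as they stand, without dye swaps or centring. All columns were matched to samples by their labels, and 0 were unmatched.

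Probes were named through their accession in a RefSeq gene table (GRCm38.p6, used for names only), which named 28026 of 55681 probes. A gene is represented by its probe with the highest mean log2 Cy5 signal. A model of 8 group means was fitted in limma 3.58.1 (R 4.3.3) with 3 arrays each (16 residual and 1.63 prior degrees of freedom), and the Benjamini-Hochberg adjustment covered every probe. The fold limit of 1.5 is that of the methods. The script was tested on simulated data. Values were read with pandas 2.3.3 in Python 3.11.15, and plots were drawn with matplotlib 3.10.9.

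The members and lists were chosen with earlier results of these data known. All members were named, and of the 3 pathway lists at most the 3 largest called rises and falls per comparison; Bcl2l11, Cxcr4 and Il7r were singled out after their values were seen, and 1 gene of these lists is not reported here by name. Alternatives were normexp with loess, quantile and median scaling, Cy5 alone, a filter on dim probes, the slide and the replicate number as blocks, array weights, the methods' outlier step, another fold limit, fewer arrays, each array left out and every probe. The 3 arrays of a group are separate mice, and their number limits the precision.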

Additional observations from a re-analysis of the deposited data

Results flagged for a closer look

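For Tsc22d3 the arrays of RAR and the high dose were ordered in opposite ways in the 2 sexes. All 3 female RAR arrays lay above all female high dose arrays, a difference of 0.85 (limma adjusted p = 0.0171), and all 3 male RAR arrays lay below all male high dose arrays, a difference of −0.35 that did not pass (adjusted p = 0.372), with the highest male RAR array at 2.606 and the lowest male high dose array at 2.608. Of all genes, 0.194% had such opposite orders in this comparison. The test of the difference between the sexes gave −1.198 (standard error 0.308, unadjusted p = 0.00112, limma adjusted p = 0.921), which did not pass.

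Between the low and the high dose, the arrays were ordered in opposite ways in the 2 sexes for Per1, with −0.19 in females and 0.30 in males, and for Dusp1, with −0.20 in females and 0.33 in males, as for 0.733% of all genes. None of these 4 differences was called. In females the arrays of the low and the high dose shared no slide, so dose and slide cannot be told apart there. The difference between the sexes was 0.49 for Per1 (unadjusted p = 0.0103) and 0.52 for Dusp1 (unadjusted p = 0.00426), with a limma adjusted p of 0.968 for both.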

How the results depend on the processing

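The counts of members called at the low dose (4 to 6), at the high dose (5 to 6) and in RAR against control (6 to 8) stayed within 1.5 times when each array was left out. The others ranged from 1 to 2 for RAR minus high dose and RAR minus low dose, 2 to 5 for female and 0 to 1 for male RAR minus high dose, and 1 to 2 for male RAR minus low dose. The replicate numbers do not pair the samples, since deviations of same-numbered arrays had a median correlation of −0.003 over 84 pairs with 3 over 0.1. With the replicate block the counts were 5 at the low dose, 6 at the high dose, 7 for RAR minus control, 1 for RAR minus high dose and 2 for RAR minus low dose, and 0 for the interaction.

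With a log2 change over 1.5 as the limit, the count was 1 for RAR minus control, averaged and in each sex, and 0 in every other comparison. Without a fold limit, a setting added after seeing the data, it was 8 for low dose minus control, 7 in females, 4 for RAR minus high dose, 3 in males, 4 for RAR minus low dose and 2 in males. RAR minus high dose gave 2 with normexp and loess, with median centring and with Cy5 alone, and male RAR minus low dose 2 with normexp, quantile scaling, the slide as a block and array weights. Cy5 alone, under which the median of all probes in RAR minus control was 0.52 instead of −0.028, gave 1 for RAR minus low dose, averaged and in females, and 0 for female high dose minus control. Leaving out the farthest value of each group, which by construction leaves the 2 closest of 3 and shrinks their spread, gave 1 for RAR minus low dose, 7 for female low dose minus control, 2 for the sex difference in RAR minus that at the high dose and 7 for the interaction. The spread shrinks for every gene, and the share of all genes called was not taken in this setting. Its counts are therefore not read as a result about the members. With only the arrays compared, the count was 0 for female and male RAR minus high dose, female and male RAR minus low dose and male low dose minus control. Without female RAR replicates 2 and 3 it was 3 for RAR minus high dose, 1 in females, and 0 for female RAR minus low dose, with 1 female RAR array left that is assumed to vary like the arrays of the other groups.

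Changes of sign touched only values that were not called. Nr3c1 in RAR minus control became 0.0793 with normexp, 0.0029 with median centring, 0.0145 with the slide block, 0.0077 without female control replicate 2, 0.0020 without male RAR replicate 1 (−0.0805 to 0.0077 over all single arrays left out) and 0.0480 without female RAR replicates 2 and 3, and with Cy5 alone −0.0589 at the low and −0.0551 at the high dose. Its second probe became 0.0698 at the low dose with normexp and −0.0097 at the high dose with the farthest values left out. With quantile scaling Klf9 became −0.0576 for RAR minus high dose and −0.0396 for RAR minus low dose, and Tsc22d3 −0.0329 for RAR minus low dose. Without female RAR replicates 2 and 3 the second Txnip probe became 0.0042 and 0.0195 for the same comparisons. The cause was not tested.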
